A study of Homo sapiens with 30 samples.

Results

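Lineage 22 was compared with lineage 35 after both had been recovered from co-culture, over all genes measured in RNA of the 2 groups. Both lineages derive from MDA-MB-231, an established human breast cancer cell line that lacks the estrogen and progesterone receptors and has a mesenchymal-like form. The labels give their genotype as wild type, as distinct lineages, and the design text calls each lineage a clone, so each group stands for 1 clone. The members were chosen by their labels: 3 libraries of 22 from co-culture and 3 libraries of 35 from co-culture, 6 of the 30 libraries in the series. Both groups were kept for 15 days in a co-culture of 6 members in RPMI-1640 medium with dialyzed serum and glutamine, which went through a bottleneck at each passage. They were then separated by FACS, and their RNA was extracted with the same kit. How the sort told the lineages apart is not given in the sources used here. The same lineages grown alone for about 24 h, here called isolation (22 in isolation and 35 in isolation, 3 libraries each), served to ask whether a difference between the lineages was also found outside the co-culture. Isolation libraries differ from those of co-culture in culture time, in sorting and in the RNA kit, but these apply to 22 and 35 alike. The series title places the work among studies of clones that exchange soluble metabolites.

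A cancer cell line is a mixture of clones that can differ for many divisions in gene expression and in the make-up of their chromosomes. When such clones share a medium, the products that one secretes or uses up reach the others, so that cells in co-culture experience the same nutrients and signals. A difference between lineages from 1 co-culture condition is therefore one between cells held, so far as the labels say, under the same conditions before collection.

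The 6 libraries held between 32.1 M and 35.9 M estimated counts, and 14570 of 26475 genes had enough of them to be tested. Levels are CPM, a gene's count scaled to one library total for all libraries, after TMM normalization, log2 differences are 22 over 35 with their standard error, and values after a mean are SDs, with n = 3 in each group. Whether the replicates of a group were separate cultures is not said. The p-values rest on the spread within groups over all 18 libraries of the fit, and this spread may be technical. The tumour line's own markers were present in all 6 libraries: vimentin (VIM) lay at 5606 to 6409 CPM in 22 and at 4569 to 5490 CPM in 35, while estrogen receptor (ESR1) and progesterone receptor (PGR) did not exceed 0.294 CPM. Replicate 1 of 22 from co-culture stood apart from the other libraries in nuclear RNAs, with 58.4 CPM of MALAT1 against 18.3 and 16.0 CPM in the other 22 libraries and 13.1 to 15.2 CPM in 35. Its NEAT1 level was 92.9 CPM, against 20.1 and 17.02 CPM in the other 22 libraries and 23.6 to 32.0 CPM in 35.

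The lineage labels of the co-culture libraries were set against the isolated lineages, which share no library with them. Of 251 genes at least 8-fold higher in isolated 22 than in isolated 35 (adjusted p below 0.05, at least 5 CPM), 118 were also higher in 22 from co-culture, 47 were lower and 86 did not pass the test. Over all tested genes 15.6% were higher and 15.5% lower in 22 from co-culture. The median level of the 251 genes was 9.91 CPM in 22 and 7.23 CPM in 35 from co-culture, and 13.2 CPM in 22 and 0.605 CPM in 35 in isolation. The 16 genes at least 8-fold higher in isolated 35 had a median of 0.582 CPM in 22 and 1.17 CPM in 35 from co-culture, against 0.659 CPM in 22 and 19.6 CPM in 35 in isolation. Of these 16 genes, 8 were also higher in 35 from co-culture, 1 was lower and 7 did not pass the test. By the medians, the libraries labelled 35 from co-culture held the RNA that isolated 35 lacked, and little of the RNA that marked isolated 35. Across genes on log2 CPM, 35 from co-culture correlated with isolated 35 at a mean r of 0.924. Its mean r was 0.95 with isolated 22, 0.964 with isolated lineage 45 (also in the fit) and 0.984 with 45 from co-culture. For 22 from co-culture the mean r was 0.962 with isolated 22, 0.978 with 35 from co-culture and 0.979 with 45 from co-culture. For 45 from co-culture it was 0.97 with isolated 45 and 0.984 with 35 from co-culture. Each lineage from co-culture thus correlated more with the other co-culture groups than with its own isolated group. Among isolated groups, 22 and 45 from co-culture correlated best with their own lineage, and 35 from co-culture did not. Below, 22 and 35 mean the libraries so labelled, and whether both groups labelled 35 hold the same cells was not tested.

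Between 22 and 35 from co-culture, 4530 genes differed (31.1% of those tested, edgeR quasi-likelihood test, BH-adjusted p below 0.05). Of these, 2275 genes were higher in 22 (15.6%) and 2255 were lower (15.5%). Over all tested genes, called or not, most differences were small, with a median size of the log2 difference of 0.239. Between the same lineages in isolation this median size was 0.459. The median log2 difference itself from co-culture was 0.0068. The libraries of the groups did not overlap in 3053 genes with 22 higher (21%) and in 3216 with 22 lower (22.1%). At least 2-fold differences were more often upward, with 545 genes higher (3.74%) and 250 lower (1.72%) in 22, and at least 4-fold differences more so, with 164 (1.13%) and 41 (0.281%). Under a stricter filter on low counts the 2-fold numbers were 242 and 86. Libraries of the 2 groups correlated with a mean r of 0.978 across genes on log2 CPM, against 0.988 within 22 and 0.992 within 35.

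The 14 largest rises in 22 were taken among called protein-coding genes with at least 10 CPM in the higher group and no overlap between the groups, so their separation was fixed by this rule, as was that of the 14 largest falls. The first is endoglin (ENG, chr9:127815012-127854756, a coreceptor for ligands of the TGF-beta and BMP family), with 11.2, 14.5 and 12.9 CPM in 22, against 0.298, 0.945 and 0.490 CPM in 35. Its level was 22.04-fold higher in 22 (log2 difference 4.46 ± 0.29, edgeR adjusted p = 1.9e-09), and the lowest 22 library lay above every 35 library. SMAD6 (chr15:66702228-66782848), an inhibitor of BMP signalling inside the cell, had 16.4, 15.7 and 18.1 CPM in 22 and 2.41, 2.95 and 2.51 CPM in 35, a 6.37-fold rise with no overlap (2.67 ± 0.18, adjusted p = 2.4e-09). The membrane proteoglycan CSPG4 (chr15:75674322-75712848, also called NG2) stood at 111, 118 and 120.1 CPM in 22 and at 14.2, 18.8 and 18.4 CPM in 35. Each 22 library was far above the 35 libraries, by 6.78-fold on average (2.76 ± 0.13, adjusted p = 2.6e-11). SUSD2, a membrane protein with a sushi domain, averaged 13.9 ± 2.08 CPM in 22 and 2.36 ± 0.282 CPM in 35 (2.56 ± 0.19, adjusted p = 8.2e-09), and was the last gene inside the limit of 14. The prostaglandin synthase PTGS1 lay just outside it, with 12.1 ± 0.233 CPM in 22 and 2.08 ± 0.942 CPM in 35.

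Among matrix genes, COL6A2 (chr21:46098097-46132849), which encodes a chain of the microfibril-forming collagen VI, had 84.5, 76.8 and 118 CPM in 22 and 10.6, 17.4 and 16.9 CPM in 35. All 3 libraries of 22 exceeded all of 35, by 6.20-fold on average (2.63 ± 0.19, adjusted p = 4.9e-08). Fibromodulin (FMOD, a small proteoglycan that binds collagen fibrils) reached 10.99, 10.7 and 14.7 CPM in 22, against 1.19, 1.92 and 2.59 CPM in 35 (2.67 ± 0.21). MAMDC2 had 31.6, 50.3 and 32.5 CPM in 22 and 3.93, 9.62 and 5.59 CPM in 35 (2.58 ± 0.25), but antisense genes overlap it and the strand used in counting is not stated, so its reads cannot be told from theirs. Beta-adducin (ADD2, chr2:70607618-70768225, which caps actin and ties it to spectrin) had 20.2, 24.9 and 22.3 CPM in 22 and 0.864, 3.52 and 1.79 CPM in 35. The 35 libraries were spread but all below 22 (10.9-fold, 3.44 ± 0.34, adjusted p = 6.1e-06), and without replicate 2 of 35 the log2 difference was 4.07. Tensin 1 (TNS1, which couples integrins to actin) averaged 53.3 ± 7.87 CPM in 22 and 8.89 ± 3.62 CPM in 35, and the GTPase-activating protein ARHGAP30 averaged 18.5 ± 1.92 CPM in 22 and 2.89 ± 0.588 CPM in 35. FRMD3, which has a FERM domain of the kind found in membrane linkers, had 32.5, 45.7 and 49.7 CPM in 22 and 1.34, 4.98 and 4.81 CPM in 35 (3.51 ± 0.35).

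The 3 of the 14 not yet described, which are not the smallest of them, are MAGEB2, ERCC6 and SAA1. MAGEB2 (chrX:30215560-30220089), an X-linked cancer-testis antigen normally limited to the germ line, had 48.9, 53.1 and 51.98 CPM in 22 and 2.89, 5.27 and 3.80 CPM in 35. This was a 12.8-fold difference (3.68 ± 0.26, adjusted p = 1.2e-06), and MAGEB2 had no count in any library of isolated 35. ERCC6, a factor of transcription-coupled DNA repair, averaged 52.4 ± 4.64 CPM in 22 and 7.36 ± 2.15 CPM in 35 (2.83 ± 0.22); PGBD3 lies within it and can share its reads. The acute-phase protein gene SAA1 had 11.997, 18.3 and 19.98 CPM in 22 and 1.91, 2.95 and 2.39 CPM in 35 (2.79 ± 0.32), with the limit that its near-identical copy SAA2 can take part of the reads.

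**Figure D1:**
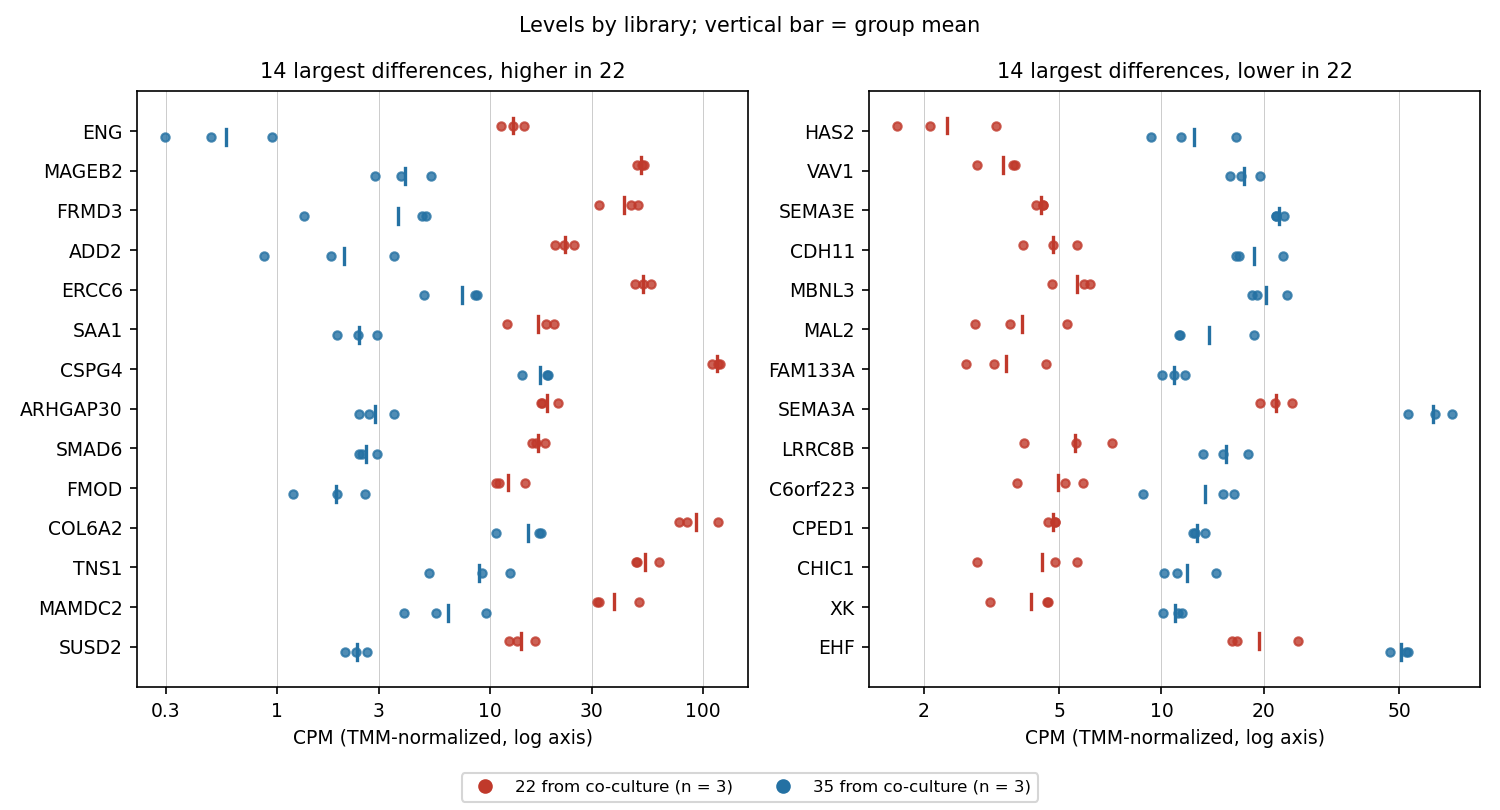
Level in each library (points) and group mean (vertical bar) of the 14 genes with the largest rise (left) and the 14 with the largest fall (right) in 22, in CPM on a log axis, with 22 drawn above 35 for each gene. The lack of overlap was a condition for the choice of these genes, and folds run from 5.88 to 22.0 on the left and from 2.62 to 5.28 on the right.

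The largest falls in 22 were smaller than the largest rises. HAS2, a synthase of the matrix sugar hyaluronan, had 3.27, 1.67 and 2.09 CPM in 22, against 16.5, 9.34 and 11.4 CPM in 35. No library of 22 reached the lowest of 35, and the level was 5.28-fold lower in 22 (-2.40 ± 0.28, edgeR adjusted p = 5.8e-06); an antisense gene overlaps it. SEMA3E (chr7:83363238-83649113) and SEMA3A (chr7:83955777-84492724), secreted semaphorins known for guiding axons and vessels, lie near each other. SEMA3E had 4.48, 4.49 and 4.27 CPM in 22 and 22.9, 21.7 and 21.7 CPM in 35 (-2.32 ± 0.16, adjusted p = 5.1e-09). SEMA3A had 21.6, 19.5 and 24.2 CPM in 22 and 63.7, 53.1 and 71.6 CPM in 35 (-1.53 ± 0.14, adjusted p = 3.4e-07). For both semaphorins the replicates of a group lay close together and the groups far apart.

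CDH11 (chr16:64943753-65126112), a cadherin of mesenchymal cells, stood at 5.65, 3.93 and 4.81 CPM in 22 and at 16.5, 16.9 and 22.8 CPM in 35, 3.91-fold lower in 22 (-1.97 ± 0.13, adjusted p = 2.4e-09). VAV1 (chr19:6772714-6857366), a guanine nucleotide exchange factor best known from blood cells, had 3.70, 2.87 and 3.67 CPM in 22 and 19.6, 15.96 and 17.1 CPM in 35. It was 5.14-fold lower in 22 without overlap (-2.36 ± 0.16, adjusted p = 2.4e-09). MBNL3 (chrX:132369317-132489968), a splicing regulator of the muscleblind family, had 5.94, 6.19 and 4.78 CPM in 22 and 18.5, 19.1 and 23.5 CPM in 35 (-1.85 ± 0.14), with a partly overlapping antisense gene. EHF, an ETS transcription factor of epithelial cells, had 25.3, 16.1 and 16.7 CPM in 22 and 52.3, 46.9 and 53.3 CPM in 35 (-1.39 ± 0.15) and was the last inside the limit of 14. Next in order, and outside, was TBC1D30 with 4.23 ± 0.118 CPM in 22 and 11.01 ± 0.618 CPM in 35. The remaining falls were in MAL2 (a membrane protein of transcytosis, -1.82 ± 0.25), LRRC8B (a subunit of volume-regulated anion channels, -1.47 ± 0.19), XK (a membrane protein bound to the Kell antigen, -1.40 ± 0.15), FAM133A (-1.64 ± 0.19), C6orf223 (-1.44 ± 0.24), CPED1 (-1.41 ± 0.15) and CHIC1 (-1.41 ± 0.23).

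Among abundant genes, with the highest mean level of those at least 2-fold apart, 3 were higher and 1 was lower in 22. Integrin beta 4 (ITGB4, which binds laminin and anchors epithelial cells; GALK1 overlaps it) had 574, 552 and 722 CPM in 22 and 298, 254 and 319 CPM in 35. Its groups did not overlap (2.12-fold, 1.09 ± 0.13, edgeR adjusted p = 3.8e-06). Annexin A6 (ANXA6, a calcium-dependent membrane-binding protein) had 544, 584 and 648 CPM in 22 and 286, 273 and 258 CPM in 35 (1.12 ± 0.09). Tissue factor (F3, the membrane receptor that starts blood clotting) had 320.1, 330.0 and 277 CPM in 22 and 619, 661 and 643 CPM in 35, 2.07-fold lower in 22 (-1.05 ± 0.10, adjusted p = 2.6e-07). The fourth, HMGCS1, belongs to cholesterol synthesis and is described with that group.

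The difference between the lineages was not the same in co-culture as in isolation. For 7233 genes (49.6% of those tested) the log2 difference between 22 and 35 from co-culture differed from that in isolation (edgeR test of the interaction, adjusted p below 0.05). In isolation 9262 genes (63.6%) differed between 22 and 35, 4693 higher (32.2%) and 4569 lower (31.4%) in 22, with 2156 (14.8%) and 867 (5.95%) at least 2-fold apart. Of the 9262, 3304 were also among the 4530 called from co-culture. Of the 3304, 2171 genes (65.7%) differed in the same direction and 1133 in the opposite direction. The isolation libraries differ from the co-culture libraries in kit and sorting, and the part of these in the interaction was not tested. Nor was it tested whether both groups labelled 35 hold the same cells, on which the reading of the interaction rests.

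Among the named genes, of the 14 largest rises in 22 from co-culture, 12 were also called higher in isolated 22, the exceptions being SAA1 and MAMDC2, which were lower there. SAA1 averaged 18.4 ± 4.52 CPM in isolated 22 and 32.9 ± 7.27 CPM in isolated 35, and MAMDC2 averaged 11.97 ± 0.711 CPM in isolated 22 and 44.4 ± 7.91 CPM in isolated 35. CSPG4 averaged 71.03 ± 5.39 CPM in isolated 22 and 4.65 ± 0.709 CPM in isolated 35, a log2 difference of 3.94 ± 0.14. Endoglin averaged 2.65 ± 0.296 CPM in isolated 22 and 0.0211 ± 0.0183 CPM in isolated 35. Of the 14 largest falls, only HAS2 and CPED1 were called lower in isolated 22 as well, 11 were called higher there and CHIC1 did not pass the test. HAS2 averaged 1.74 ± 0.337 CPM in isolated 22 and 12.2 ± 3.70 CPM in isolated 35 (-2.81 ± 0.29).

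**Figure D2:**
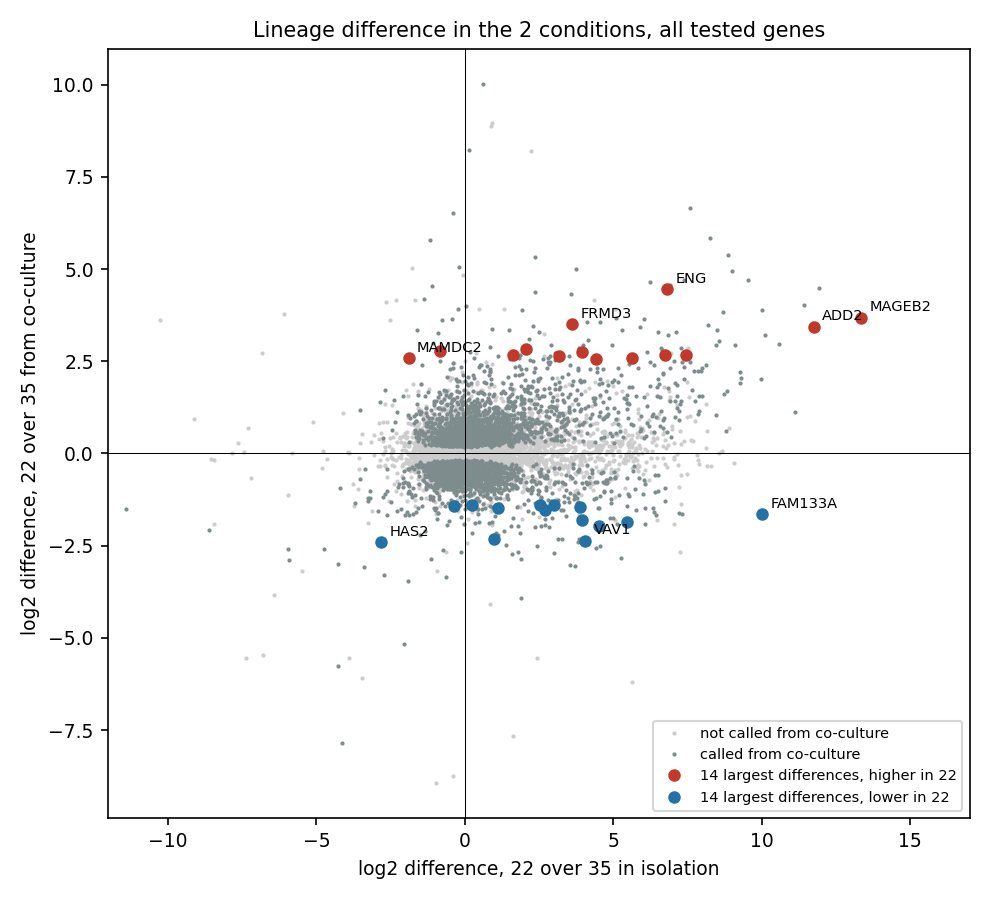
Log2 difference of 22 over 35 in isolation (horizontal) and from co-culture (vertical) for all tested genes, each a point, with the 14 largest rises and falls from co-culture marked. Rises such as ENG and ADD2 lie on the upper right, falls such as VAV1 and FAM133A on the lower right and HAS2 on the lower left; the horizontal position of genes without counts in isolated 35, such as MAGEB2 and ADD2, depends on the fit and is no measured fold.

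The 6 genes with the smallest interaction p among those called in opposite directions were all lower in 22 from co-culture and higher in isolated 22. CDH11 had 84.96, 75.9 and 73.4 CPM in isolated 22 and 3.07, 3.71 and 3.36 CPM in isolated 35, the reverse of the order from co-culture, and its interaction was -6.49 ± 0.19 log2 units (edgeR adjusted p = 1e-15). MBNL3 had 14.8, 12.6 and 13.8 CPM in isolated 22 and 0.355, 0.360 and 0.218 CPM in isolated 35 (interaction -7.29 ± 0.25). In both genes the co-culture values of 35 were several times those of isolated 35, and the co-culture values of 22 were below those of isolated 22. DGAT2 (chr11:75759512-75801535), which makes triglyceride from diacylglycerol, had 11.3, 10.7 and 12.4 CPM in 22 and 18.4, 16.2 and 15.2 CPM in 35 from co-culture, a log2 difference of -0.54 ± 0.10. In isolation it had 22.4, 21.6 and 20.95 CPM in 22 and 1.07, 0.831 and 0.840 CPM in 35 (interaction -5.10 ± 0.16). TMEM156 (chr4:38966744-39032922), a membrane protein, averaged 27.05 ± 2.58 CPM in 22 and 46.8 ± 1.55 CPM in 35 from co-culture, and 29.8 ± 1.88 CPM in 22 and 1.11 ± 0.243 CPM in 35 in isolation (interaction -5.52 ± 0.18). The long noncoding RNA LINC01234 (chr12:113679459-113773683) averaged 16.5 ± 0.628 CPM in 22 and 33.9 ± 5.18 CPM in 35 from co-culture, and 10.03 ± 0.222 CPM in 22 and 0.385 ± 0.0719 CPM in 35 in isolation (interaction -5.74 ± 0.19). AFAP1-AS1 (chr4:7754090-7778928), a noncoding RNA that overlaps AFAP1 and may share its reads, averaged 93.4 ± 7.38 CPM in 22 and 148 ± 4.68 CPM in 35 from co-culture, and 100.3 ± 7.73 CPM in 22 and 3.40 ± 0.886 CPM in 35 in isolation (interaction -5.55 ± 0.18).

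The largest differences from co-culture were few. With at least 8-fold and at least 5 CPM, 9 genes were higher and 2 were lower in 22 from co-culture. In isolation 8 of the 9 were at least 8-fold higher in 22 too, and both of the 2 were called lower, 1 of them at least 8-fold. The 9 included ADD2, CLEC11A, COBL, ENG, FRMD3, LARGE, MAGEB2 and TMEM98, of which COBL, an actin nucleator, was lower in isolated 22. COBL averaged 7.83 ± 0.754 CPM in 22 and 0.424 ± 0.303 CPM in 35 from co-culture (4.19 ± 0.26). The 2 lower genes were TMEM163, a zinc transporter, with a mean of 0.867 ± 0.102 CPM in 22 and 7.02 ± 1.52 CPM in 35 (-3.01 ± 0.22), and QPCT, which makes pyroglutamate ends on peptides, with 0.554 ± 0.164 CPM in 22 and 5.64 ± 1.09 CPM in 35 (-3.35 ± 0.22). Of the 251 genes at least 8-fold higher in isolated 22, 7 kept an 8-fold difference from co-culture, with a median log2 difference of 0.33 over the 251, against 4.41 in isolation.

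Many of the genes lower in 22 were neighbours on chromosomes. Over windows of 50 neighbouring protein-coding genes, 46 of 256 windows had a median log2 difference of at most -0.2 and 13 had one of at least 0.2. Runs of at least 4 such windows formed 5 blocks, all lower in 22; this definition was chosen after the window values were seen. The blocks lay at chr1:37566816-118185223, chr4:5711197-169612629, chr7:192969-152122347, chr19:281043-38899862 (GRCh38), and over 5 of the 9 windows of the X chromosome. All 12 windows of chromosome 7 were inside its block. Median log2 differences in the blocks were -0.41 on chromosome 1, -0.31 on chromosome 4, -0.33 on chromosome 7, -0.31 on chromosome 19 and -0.65 on the X chromosome. Set against the mean of the 35 libraries, the X block had medians of -0.58, -0.72 and -0.64 in the 3 libraries of 22. The 3 libraries of 35, each set against the mean of the others in its group, had medians of 0.07, -0.08 and -0.00155. In each of the 5 blocks, which were chosen for low values in 22, every such median of a 22 library lay below every one of a 35 library.

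The blocks held 2200 of the 13277 protein-coding genes tested (16.6%) and 1203 of the 2148 such genes lower in 22 (56%). Within the blocks 54.7% of genes were lower and 4.41% higher, and outside them 8.53% were lower and 18.8% higher, with 945 and 2087 genes. Because the blocks were defined by low medians of these same differences, an excess of lower genes inside them was built in. In isolation the same stretches had median log2 differences of -0.46 (chromosome 1), 0.22 (chromosome 4), -0.41 (chromosome 7), -0.49 (chromosome 19) and 0.998 (X), so on chromosomes 4 and X the direction was reversed. Of the 14 largest falls 8 lie in the blocks, among them VAV1, both semaphorins and MBNL3, and none of the 14 largest rises do. This too follows in part from how the blocks were defined. DNA copy number was not analysed here, and its part in these medians was not tested.

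**Figure D3:**
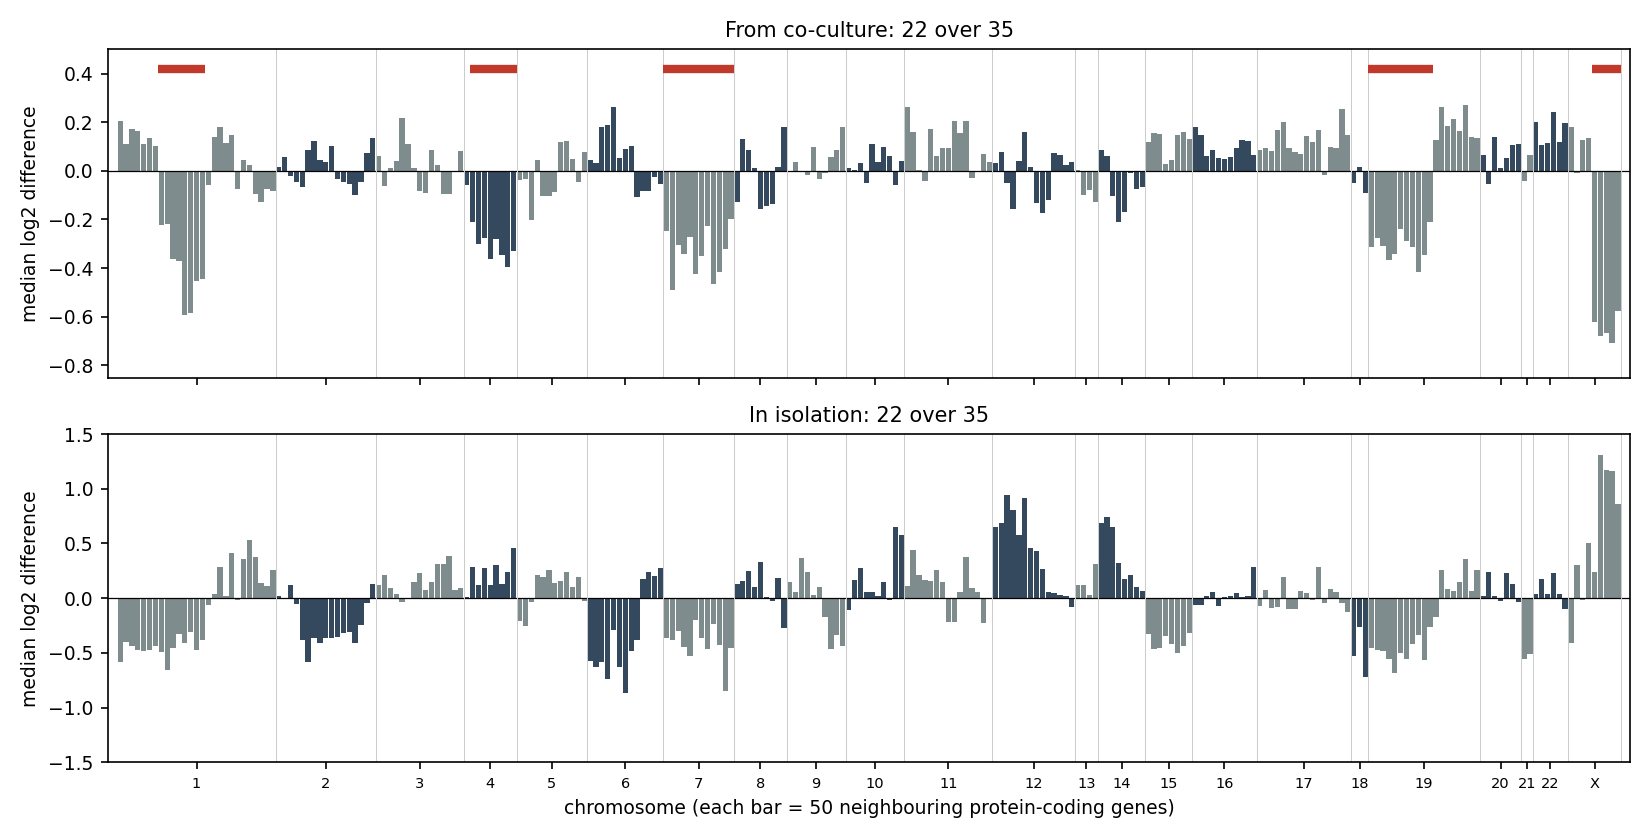
Median log2 difference of 22 over 35 in windows of 50 neighbouring protein-coding genes along the chromosomes, from co-culture (top) and in isolation (bottom, with a wider axis), with bars in alternating shades by chromosome and the 5 blocks marked by red lines. The blocks on chromosomes 1, 7 and 19 lie below 0 in both panels, and those on chromosomes 4 and X lie below 0 from co-culture and above 0 in isolation.

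Gene groups are given by the number of tested members higher or lower in 22, to be read against 15.6% higher and 15.5% lower over all tested genes and an overall median log2 difference of 0.0068. Genes named in these groups that overlap another annotated gene, to which part of their reads may belong, include ACSS2, NR1H3, IFITM1, HLA-B, HLA-DPA1, TXNRD1, COL18A1, COL5A1, TIMP2, ID2, SPARC, TAGLN, LOXL2, KRT8, CCNA2, RPL10 and ERBB2, and likewise SCD5, ELOVL1, ABCA2, DDX60L, IL6, LAMA1, CLDN12, ESRP2, MCM7, UHRF1, FEN1, ANLN, CDC25C, NDUFA1, CTPS2, LAPTM5, PGK1, SLC16A1, P4HA2, LOX, CA9, ANGPTL4, AMOTL2, ASAP1 and LRIG1. Because of the blocks, members inside and outside them are told apart where this matters. By their definition the blocks held 56% of the lower and 4.44% of the higher protein-coding genes. Outside them 18.8% of protein-coding genes were higher and 8.53% lower. In bulk RNA fewer cells of a kind and less RNA per cell cannot be told apart.

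**Figure D4:**
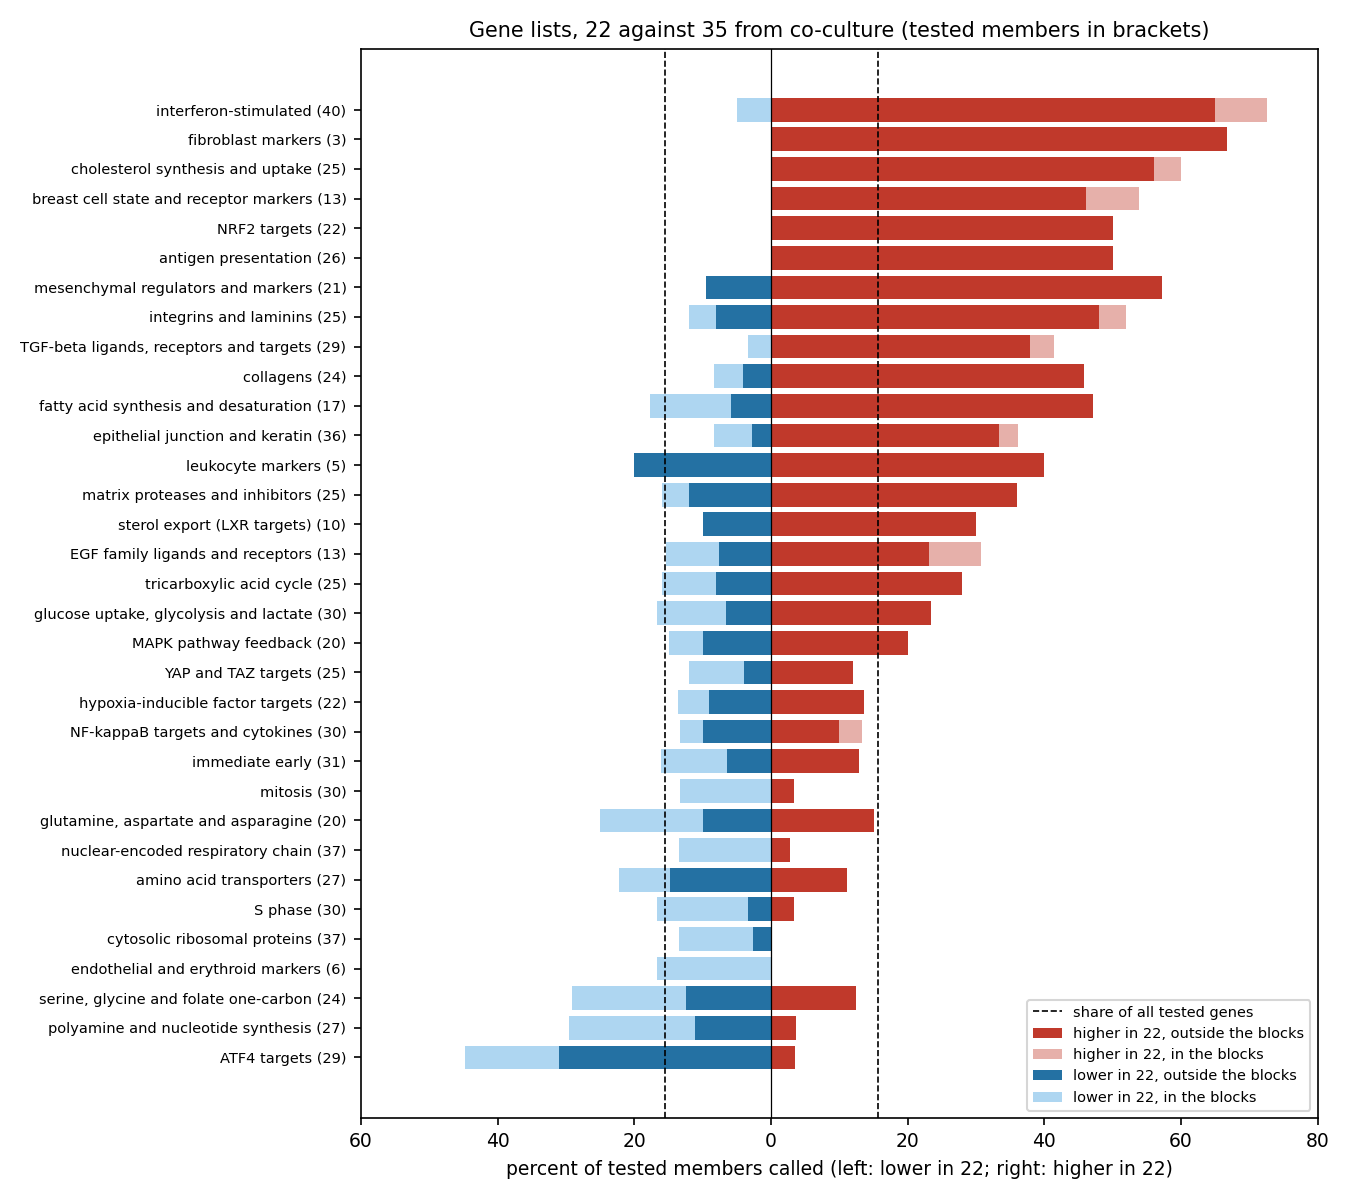
Percent of tested members of each gene list called higher (right) or lower (left) in 22 from co-culture, with members inside the 5 blocks in pale colours and dashed lines at the share of all tested genes (15.6% higher and 15.5% lower). Interferon-stimulated genes have 29 of 40 members higher, and ATF4 targets have 13 of 29 lower, 4 of them inside the blocks.

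Genes of cholesterol synthesis and uptake were more abundant in 22. These genes are known targets of SREBP2, a membrane-bound transcription factor that is released when cell sterol is low. Of 25 members 15 were higher in 22 and none was lower, with a median log2 difference of 0.52, and 14 of 19 outside the blocks were higher; 1 was lower without replicate 3 of 22 or replicate 2 of 35. HMGCS1, which makes HMG-CoA at the start of the pathway, had 484, 326 and 334 CPM in 22, against 187, 162 and 193 CPM in 35 (2.11-fold, 1.08 ± 0.17, edgeR adjusted p = 0.00017). In isolation it averaged 57.5 ± 5.01 CPM in 22 and 41.99 ± 2.24 CPM in 35. FDFT1 (squalene synthase, which commits the pathway to sterols) had 504, 431 and 562 CPM in 22 and 319, 249.6 and 266 CPM in 35 (0.84 ± 0.12). Squalene epoxidase (SQLE) had 121, 116 and 122 CPM in 22 and 74.99, 64.6 and 73.3 CPM in 35 (0.75 ± 0.08), and lanosterol synthase (LSS), which closes the sterol rings, had 413, 332 and 398 CPM in 22 and 207, 171 and 195 CPM in 35 (1.99-fold, 0.996 ± 0.10). In all 4 enzymes the lowest library of 22 was above the highest of 35. LSS was lower in isolated 22, at 105 ± 7.98 CPM against 144 ± 11.9 CPM in isolated 35, and its interaction was 1.45 ± 0.15 (adjusted p = 7.3e-08). ACAT2, which joins acetyl-CoA units, averaged 295 ± 24.8 CPM in 22 and 179 ± 19.99 CPM in 35, though its reads may be shared with the overlapping TCP1.

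Fatty acid synthesis genes moved in both directions, with 8 of 17 higher and SCD5, ELOVL1 and ELOVL7 lower (median 0.27). ACSS2, which turns acetate into acetyl-CoA, had 143, 110.4 and 153 CPM in 22 and 87.1, 62.5 and 71.9 CPM in 35 (0.87 ± 0.13), and the acetyl-CoA carboxylase ACACB averaged 13.04 ± 0.891 CPM in 22 and 8.07 ± 0.903 CPM in 35 (0.69 ± 0.11). The desaturase SCD5, which lies in the chromosome 4 block, averaged 20.6 ± 3.18 CPM in 22 and 34.96 ± 4.45 CPM in 35 (-0.76 ± 0.11), and the elongase ELOVL7 averaged 4.10 ± 1.30 CPM in 22 and 9.62 ± 0.493 CPM in 35 (-1.22 ± 0.19). Of 10 genes of sterol export driven by LXR, NR1H3, APOE and ABCA2 were higher and SMPDL3A was lower, with 2 lower without replicate 2 of 35 and 0 without its replicate 3. The receptor gene NR1H3 itself averaged 12.5 ± 0.732 CPM in 22 and 7.13 ± 1.12 CPM in 35 (0.81 ± 0.13), and the lipoprotein gene APOE had 1.95, 1.79 and 2.86 CPM in 22 and 0.328, 0.945 and 0.403 CPM in 35, a log2 difference of 1.96 ± 0.31 that was 2.57 without replicate 2 of 35.

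Interferon-stimulated genes, which respond to STAT and IRF factors that bind the interferon-stimulated response element, were also higher in 22. Of 40 members 29 were higher and 2 lower (median 0.52), and outside the blocks 26 of 31 were higher and none was lower. The 2 lower ones, DDX60L and BST2, lie in the blocks on chromosomes 4 and 19, and 1 was lower without replicate 1 or 2 of 22 or replicate 1 of 35. MX1 (chr21:41420304-41459214), a GTPase that traps viruses, had 9.07, 9.35 and 12.3 CPM in 22 and 3.61, 3.78 and 3.86 CPM in 35. Each 22 library was above each of 35, by 2.73-fold (1.45 ± 0.14, edgeR adjusted p = 2.1e-07). The RNA sensor RIG-I (DDX58) had 94.9, 102 and 113 CPM in 22 and 56.8, 59.8 and 65.5 CPM in 35 (0.77 ± 0.08). OAS2, which makes the 2-5A signal that activates RNase L, had 38.1, 37.97 and 46.2 CPM in 22 and 22.1, 21.3 and 25.3 CPM in 35 (0.83 ± 0.11), and EPSTI1 had 3.39, 3.81 and 5.15 CPM in 22 and 1.70, 1.92 and 1.64 CPM in 35 (1.22 ± 0.16). The groups stayed apart in these 3 genes as well. In isolation 36 of the 40 were higher in 22 and 1 was lower, with a median log2 difference of 1.49.

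The response element was looked for, as GAAANNGAAA on both strands, in the 250 bases before each gene's start in RefSeq (GRCh38.p14). It was found in 20 of the 31 list members that have a promoter in that table (64.5%) and in 3.07% of all 27305 promoters. Of the 20 members higher in 22 with a promoter in the table, 13 held it, a share close to the 64.5% of the whole list. The element thus did not set the members higher in 22 apart from the rest of the list. The 4 stretches below are from such members and are shown for the element itself, in capitals, with neighbouring sequence in lower case, 5′ to 3′ on the gene's strand; they were chosen after the values were seen. EPSTI1 is from chr13:42992242-42992331 on the minus strand, IFITM1 from chr11:313960-314039, ISG20 from chr15:88638907-88638996 and ISG15 from chr1:1013344-1013433, these 3 on the plus strand.
EPSTI1: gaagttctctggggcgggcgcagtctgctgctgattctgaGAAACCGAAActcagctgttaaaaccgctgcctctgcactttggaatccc
IFITM1: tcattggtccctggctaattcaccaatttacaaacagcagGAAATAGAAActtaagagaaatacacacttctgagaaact
ISG20: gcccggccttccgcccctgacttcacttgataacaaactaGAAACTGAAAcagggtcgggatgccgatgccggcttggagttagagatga
ISG15: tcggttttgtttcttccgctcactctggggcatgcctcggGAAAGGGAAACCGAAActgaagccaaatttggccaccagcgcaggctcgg

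In ISG15 the capitals cover 2 overlapping matches, and in the other 3 genes a single one. IFITM1, which blocks virus entry at membranes, had 12.3, 9.44 and 10.3 CPM in 22 and 4.86, 4.70 and 4.72 CPM in 35 (1.16 ± 0.17). ISG20, an RNA exonuclease, had 15.04, 14.3 and 22.1 CPM in 22 and 8.88, 8.65 and 9.48 CPM in 35 (0.93 ± 0.16), and ISG15, a ubiquitin-like modifier, had 106, 105 and 118 CPM in 22 and 71.4, 64.7 and 67.5 CPM in 35 (0.69 ± 0.10). All libraries of 22 were above those of 35 in each. For comparison, the sterol regulatory element, searched as TCACNCCAC, was in the promoter of 1 of 18 cholesterol genes, SREBF2, and in 0.875% of all promoters.

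The antigen presentation list had 13 of 26 members higher and none lower (median 0.33). PSMB9, a subunit of the immunoproteasome, had 15.6, 15.1 and 19.8 CPM in 22 and 7.96, 8.02 and 9.27 CPM in 35 (0.997 ± 0.12, edgeR adjusted p = 5.3e-06), though neighbouring genes overlap it. The class I gene HLA-B had 161, 142 and 188 CPM in 22 and 92.2, 99.3 and 107 CPM in 35 (0.72 ± 0.09). In isolation it was lower in 22, at 794 ± 26.8 CPM, against 1145 ± 72.3 CPM in 35, and the interaction was 1.25 ± 0.13 (adjusted p = 1.1e-07). Of class II, HLA-DRB1 had 2.12, 1.08 and 2.66 CPM in 22 and 0.209, 0.315 and 0.346 CPM in 35, and HLA-DPA1 had 3.67, 1.79 and 3.23 CPM in 22 and 0.626, 0.745 and 0.950 CPM in 35. Both stayed at low levels with all 22 libraries above those of 35 (2.73 ± 0.43 and 1.90 ± 0.27). HLA genes are alike and may share reads. Of 30 NF-kappaB targets and cytokines 4 were higher (NFKB2, TNIP1, IL6 and IL11) and 4 lower (NFKB1, CSF2, CSF3 and PTGS2), with a median of -0.10, and in isolation 27 were higher in 22 and 1 was lower. Without replicate 3 of 22 the higher ones from co-culture were 2, and without replicate 2 of 22 or replicate 2 or 3 of 35 the lower ones were 2.

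ATF4 targets, which are induced when amino acids run short, were more often lower than higher in 22: 13 of 29 fell and 1 rose (median -0.31), or 9 of 23 and 1 outside the blocks (median -0.24). The 1 that rose was JDP2, and in isolation 15 of the 29 were higher and 6 lower in 22. PHGDH (chr1:119648411-119744226), which starts serine synthesis, had 12.97, 12.8 and 11.002 CPM in 22 and 30.6, 23.3 and 19.9 CPM in 35. It was 2.01-fold lower in 22 (-1.01 ± 0.17, edgeR adjusted p = 0.00018), whereas in isolation it averaged 18.6 ± 1.53 CPM in 22 and 0.203 ± 0.115 CPM in 35. Asparagine synthetase (ASNS) had 66.5, 65.8 and 51.8 CPM in 22 and 139, 124 and 102 CPM in 35 (-0.99 ± 0.16), and the factor CEBPG had 58.3, 64.4 and 55.8 CPM in 22 and 108, 105 and 103 CPM in 35 (-0.82 ± 0.10). The glycyl-tRNA synthetase GARS averaged 265 ± 6.01 CPM in 22 and 413 ± 40.8 CPM in 35 (-0.64 ± 0.09). ASNS and GARS lie in the chromosome 7 block and CEBPG in that of chromosome 19, while PHGDH lies outside.

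Of 24 genes of serine, glycine and folate metabolism 3 were higher and 7 lower, and 4 of the 7 lie in the blocks; without replicate 1 of 22 or replicate 2 of 35, 1 was higher. CTH, which makes cysteine from cystathionine, had 4.48, 4.81 and 3.40 CPM in 22 and 11.5, 10.1 and 8.55 CPM in 35 (-1.25 ± 0.18). PSPH, the last step of serine synthesis, averaged 26.3 ± 0.788 CPM in 22 and 39.6 ± 3.85 CPM in 35 (-0.59 ± 0.11). Both are inside the blocks of chromosomes 1 and 7. ALDH1L1, a folate dehydrogenase, went the other way, with 1.38, 1.35 and 1.58 CPM in 22 and 0.507, 0.544 and 0.432 CPM in 35 (1.53 ± 0.26), and antisense genes overlap it.

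NRF2 targets protect cells against oxidants. Of 22 such genes 11 were higher and none was lower (median 0.30), and the 11 lie outside the blocks; in isolation 7 were higher and 7 lower in 22. Without replicate 2 of 22, 1 was lower from co-culture. The quinone reductase NQO1 (chr16:69706996-69726951) had 418, 484 and 474 CPM in 22 and 219, 259 and 233 CPM in 35. The 22 libraries were 1.94-fold higher without overlap (0.95 ± 0.09, edgeR adjusted p = 1.7e-07), while in isolation the levels were 389.7 ± 22.2 CPM in 22 and 366 ± 17.2 CPM in 35, which did not pass the test. The interaction of NQO1 was 0.86 ± 0.12 (adjusted p = 8.4e-06). PGD, of the pentose phosphate pathway, had 298, 307 and 379.8 CPM in 22 and 226, 196 and 199.9 CPM in 35 (0.66 ± 0.09), thioredoxin reductase TXNRD1 averaged 1001 ± 80.6 CPM in 22 and 665 ± 23.4 CPM in 35 (0.59 ± 0.10), and the exporter ABCC3 averaged 41.4 ± 3.04 CPM in 22 and 23.6 ± 1.99 CPM in 35 (0.81 ± 0.13). The antioxidant response element, searched as TGACNNNGC, was in 4 of 16 promoters of the list (25%) and in 11% of all promoters.

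Genes of the matrix and of adhesion to it are given by family. Of 24 collagens 11 were higher and COL8A1 and COL9A2 were lower (median 0.48). Besides COL6A2, COL18A1, a basement membrane collagen, had 237, 196 and 247 CPM in 22 and 94.6, 105 and 117 CPM in 35 (1.10 ± 0.11), and COL5A1, of fibrils, had 193, 161 and 192 CPM in 22 and 92.8, 97.2 and 109.6 CPM in 35 (0.87 ± 0.09). COL8A1, a short-chain collagen, went the other way with 137, 156 and 136 CPM in 22 and 265, 248 and 227 CPM in 35 (-0.79 ± 0.10). Of 25 integrins and laminins 13 were higher and ITGB8, LAMA1 and LAMA4 were lower (median 0.48). Without replicate 1 of 35, 7 were higher, and without replicate 3 of 35, 1 was lower. The laminin chain LAMC1 had 549, 612 and 738 CPM in 22 and 309, 321 and 334 CPM in 35 (1.97-fold, 0.98 ± 0.11). ITGA6, the partner of ITGB4 in the laminin receptor of hemidesmosomes, had 649.6, 677 and 747 CPM in 22 and 382, 361 and 425 CPM in 35 (0.83 ± 0.11), and ITGA3 averaged 1732 ± 64.9 CPM in 22 and 1159 ± 56.3 CPM in 35 (0.58 ± 0.08). None of these 3 had overlapping groups. Matrix proteases and their inhibitors had 9 of 25 higher, or 5 without replicate 2 of 35, and 4 lower. The inhibitor TIMP2 averaged 699 ± 41.9 CPM in 22 and 501 ± 38.7 CPM in 35 (0.48 ± 0.08), and the protease ADAMTS6 averaged 2.17 ± 0.569 CPM in 22 and 6.54 ± 1.82 CPM in 35 (-1.58 ± 0.29).

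Of 29 genes of the TGF-beta family and its targets 12 were higher and 1 lower (median 0.23). ID2, an inhibitor of basic helix-loop-helix factors that BMP signals induce, had 3.56, 4.31 and 3.73 CPM in 22 and 0.834, 1.75 and 1.67 CPM in 35 (1.44 ± 0.20). Its relative ID3 had 58.7, 60.7 and 61.4 CPM in 22 and 38.3, 42.3 and 36.5 CPM in 35 (0.63 ± 0.09). TGFBI, a secreted matrix protein, had 77.8, 71.1 and 80.8 CPM in 22 and 49.5, 44.1 and 47.9 CPM in 35 (0.70 ± 0.10). Together with SMAD6 these 4 genes had no overlap between groups. The lower one lies in the chromosome 7 block, and without replicate 3 of 22 or replicate 2 of 35 there were 2.

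Markers of mesenchymal and of epithelial form were both more often higher than lower in 22. Of 21 mesenchymal genes 12 were higher and 2 lower (median 0.28), and 13 of 36 genes of epithelial junctions and keratins were higher against 3 lower (CLDN12, ESRP2 and LSR, median 0.11). SPARC, a matrix glycoprotein, had 2.96, 1.67 and 2.83 CPM in 22 and 0.179, 0.258 and 0.288 CPM in 35 (3.34 ± 0.32). Transgelin (TAGLN), an actin-binding protein, had 10.2, 15.7 and 12.8 CPM in 22 and 3.90, 5.33 and 4.03 CPM in 35 (1.54 ± 0.19). In both, every 22 library was above every 35 library. The collagen crosslinker LOXL2 averaged 434 ± 54.3 CPM in 22 and 285 ± 15.3 CPM in 35 (0.61 ± 0.08). CDH11, described above, and moesin (MSN, -0.43 ± 0.09) were the 2 lower ones. On the epithelial side, keratin 8 (KRT8) had 1260.0, 1304 and 1599 CPM in 22 and 971, 837 and 849.6 CPM in 35 (0.65 ± 0.10), and plakoglobin (JUP) averaged 66.4 ± 10.8 CPM in 22 and 39.5 ± 6.32 CPM in 35 (0.75 ± 0.15). The surface protein CD24 had 30.8, 29.9 and 20.4 CPM in 22 and 11.5, 13.7 and 15.3 CPM in 35 (1.01 ± 0.15). The lipoprotein receptor and junction protein LSR had 30.1, 28.4 and 29.6 CPM in 22 and 69.2, 54.5 and 55.6 CPM in 35 (-1.02 ± 0.12) and lies in the chromosome 19 block. Breast cell state and receptor markers had 7 of 13 higher and none lower.

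Of the genes of replication, mitosis, respiration, ribosomes and nucleotide supply that fell in 22, most lie in the blocks. The same holds for 56% of all protein-coding genes lower in 22, because the blocks were defined by low values. Of 30 S phase genes MCM7, RFC2, CCNE1, UHRF1 and RRM2 were lower, the first 4 in the blocks, and FEN1 was higher. Of 30 mitosis genes CCNA2, MAD2L1, KIF2C and ANLN were lower, all in the blocks, and CDC25C was higher. Each of FEN1 and CDC25C lost its call without any 1 of several libraries (replicate 3 of 22 and replicates 2 and 3 of 35 for both, and replicate 2 of 22 for CDC25C). The clamp loader RFC2 (chromosome 7) averaged 86.3 ± 1.87 CPM in 22 and 118 ± 9.45 CPM in 35 (-0.45 ± 0.08), and cyclin A2 (CCNA2, chromosome 4) averaged 162 ± 2.69 CPM in 22 and 208 ± 12.8 CPM in 35 (-0.36 ± 0.08). Of 37 nuclear-encoded respiratory chain genes NDUFA1, NDUFA4, UQCRFS1, UQCRH and COX7B were lower, all 5 in the blocks, and UQCRC1 was higher, though not without replicate 2 or 3 of 22 or replicate 2 or 3 of 35. COX7B, a subunit of cytochrome oxidase on the X chromosome, had 67.8, 65.3 and 64.03 CPM in 22 and 124, 113 and 109 CPM in 35 (-0.81 ± 0.11). Of 37 cytosolic ribosomal proteins 5 were lower, 4 of them in the blocks, and none was higher, with RPL10 (X chromosome) averaging 663 ± 144 CPM in 22 and 1220.5 ± 155 CPM in 35 (-0.88 ± 0.14). Of 27 genes of polyamine and nucleotide synthesis 8 were lower, 5 of them in the blocks, and CTPS2 was higher, though not without replicate 1 or 3 of 22 or replicate 1 or 3 of 35. PRPS1, which makes the ribose donor of nucleotides and is X-linked, averaged 80.9 ± 1.76 CPM in 22 and 134 ± 13.4 CPM in 35 (-0.72 ± 0.09).

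Of 14 markers of other cell types that could be tested, 4 were higher and 2 lower in 22. The 8 fibroblast markers summed to 16.2 to 20.5 CPM in 22 and to 9.03 to 10.4 CPM in 35, and decorin (DCN) was at 0 in all 6 libraries. Of the 3 tested, COL1A1 and PDGFRB were higher in 22. The 9 leukocyte markers summed to 243 to 277 CPM in 22 and to 172 to 187 CPM in 35, with CD3E and TYROBP among those at 0. LAPTM5, a lysosomal membrane protein, had 156, 141 and 145 CPM in 22 and 66.4, 65.8 and 71.3 CPM in 35, and of the 5 tested LAPTM5 and CORO1A were higher and PTPRC was lower, with 1 higher without replicate 1 of 22 or replicate 2 or 3 of 35. The 10 endothelial and erythroid markers summed to 132 to 146.0 CPM in 22 and to 123 to 129 CPM in 35, most of it from ESAM, with HBB at 0, and of the 6 tested none was higher and 1, KDR, was lower, though not without replicate 1 of 22 or replicate 2 of 35; without replicate 3 of 35, 1 was higher. The part of these markers in the results was not tested.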

How the data were processed

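RNA was sequenced from a stranded mRNA kit in paired reads, per the labels' protocols. STAR 2.6.1d, Salmon 1.4.0 and GRCh38 are named in the submitters' processing notes; the annotation, the scaling tool, any filter and the use of strand in counting are not given in the sources used here. Per the file headers and the labels, the authors deposited estimated counts by gene, scaled for transcript length and with no scaling for library depth. A table of lineages 03, 10, 13 and Pop was not used here.

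Estimated counts of 18 libraries in 6 groups were rounded and fitted together in edgeR 4.0.16 (R 4.3.3, limma 3.58.1): TMM, filterByExpr, robust quasi-likelihood fit, BH adjustment at 0.05, 12 residual degrees of freedom, biological coefficient of variation 10.4%. The standard error is the log2 difference over the root of F. The calculation was tested on simulated counts. The co-culture and isolation contrasts share no library. Replicates differed by a mean chi-square over genes of 9.87 to 44.4, so each library counted as 1 sample.

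Named genes are the 14 largest differences in each direction (protein-coding, called, at least 10 CPM, no overlap), from each list up to 4 genes by p, the 6 smallest interaction p of opposite sign, and the 4 most abundant at 2-fold; IFITM1, ISG20, ISG15 and the genes that spell out small counts were added after their values were seen. Some genes that these rules name are not reported here. The members and the 33 lists (816 symbols, all found, 15 by an older symbol) were chosen with earlier results of these data known. Coordinates are GRCh38, from GENCODE for 23862 genes and RefSeq for 1532; medians by chromosome arm were not made for want of centromere positions. Alternatives were DESeq2 1.42.0, RLE, no or a stricter filter, a replicate block, the 6 libraries alone, glmTreat at 1.5-fold, thinning, each library left out, and genes outside the blocks.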

Additional observations from a re-analysis of the deposited data

Results flagged for a closer look

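Genes were picked out here because the difference between 22 and 35 from co-culture differed from that in isolation by the test of the interaction. This held for 7233 genes. The 6 with the smallest p among genes called in opposite directions had interactions, in log2 units and as co-culture minus isolation, of -6.49 for CDH11, -5.10 for DGAT2, -5.55 for AFAP1-AS1, -5.52 for TMEM156, -5.74 for LINC01234 and -7.29 for MBNL3. Each was lower in 22 from co-culture and higher in isolated 22, and each of the 3 isolated 35 libraries was below all co-culture libraries of 35 in these 6 genes. MBNL3 lies in the block on X, and AFAP1-AS1 and TMEM156 in that on chromosome 4. Groups of 3 libraries are too small for the check of single outlying libraries, and no result was picked out by it.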

How the results depend on the processing

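Under another test (DESeq2), RLE normalization, no filter, thinning to the smallest library and a fit of the 6 libraries alone, the calls ranged from 1794 to 2625 higher and from 1814 to 2192 lower genes, against 2275 and 2255. A stricter filter left 242 genes higher and 86 lower at 2-fold, and a test against a 1.5-fold change (glmTreat) called 387 higher and 180 lower. Outside the blocks, an alternative chosen after seeing the data, 2087 protein-coding genes were higher and 945 lower. Over all protein-coding genes these numbers were 2184 and 2148. Leaving out each compared library gave 1834 to 2182 higher and 1733 to 2159 lower genes, 491 to 617 and 218 to 308 at 2-fold, and leaving out any of the 12 libraries gave 6595 to 7167 interactions. The chromosome medians became -0.011 (chromosome 1) and -0.299 (chromosome 7) under RLE and -0.134 (chromosome 19) under the stricter filter, against -0.0374, -0.325 and -0.0953.

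Same-numbered libraries deviated from their group means with correlations of -0.0752, 0.0286 and 0.0426, and replicate 1 of 22 correlated best with replicate 2 of 35 (0.102), so the numbers were not taken to pair them. A replicate block called 2284 higher and 2283 lower genes, and 1584 and 1554 in the 6 libraries alone. Of 1964 refits of 152 named genes 0 reversed and 11 lost the call, in KDR, MCM7, ANLN, KIF2C, CORO1A and SMPDL3A. Refits in which a gene fell below the filter are not among the 1964. Under the stricter filter 142 of the 152 genes could be tested, and the fits of the 6 libraries alone also lacked a named gene. Without 1 of the 6 compared libraries, 6 to 15 list counts, mostly small ones, moved by over 1.5 times. Low genes carry more counting error, and with 3 libraries a group small differences are missed.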

Other observations

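Further groups of metabolism and signalling are given against the same 15.6% higher and 15.5% lower over all tested genes. Of 30 genes of glucose uptake, glycolysis and lactate 7 were higher in 22 and HK2, GPI, PGK1, SLC16A1 and SLC16A7 were lower, 3 of these in the blocks; 4 were higher without replicate 3 of 22, or without replicate 2 or 3 of 35. Phosphofructokinase PFKP had 726, 739 and 842 CPM in 22 and 521, 492 and 491 CPM in 35 (0.62 ± 0.08), whereas hexokinase HK2 had 97.6, 104 and 109 CPM in 22 and 153, 146 and 160.3 CPM in 35 (-0.56 ± 0.08). Neither gene had overlapping groups. Of 25 genes of the tricarboxylic acid cycle 7 were higher and 4 lower, or 4 higher without replicate 1 of 22 or replicate 2 or 3 of 35 and 2 lower without replicate 1 of 35. The mitochondrial isocitrate dehydrogenase IDH2 had 23.4, 23.8 and 27.99 CPM in 22 and 13.3, 12.4 and 11.3 CPM in 35 (2.03-fold, 1.02 ± 0.11, edgeR adjusted p = 9.5e-07). For glutamine, aspartate and asparagine 3 of 20 genes were higher and 5 lower, and glutamine synthetase (GLUL) had 148, 160.0 and 190.5 CPM in 22 and 118, 109 and 102 CPM in 35 (0.60 ± 0.09). Of 27 amino acid transporters 3 were higher and 6 lower, or 3 lower without replicate 3 of 35 and 1 higher without replicate 1 of 22 or replicate 2 or 3 of 35. One of the 6 was SLC38A1, which imports glutamine and averaged 510.4 ± 85.7 CPM in 22 and 717 ± 37.4 CPM in 35.

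Hypoxia-inducible factor targets had CA12, P4HA2 and LOX of 22 members higher and CA9, VEGFA and ANGPTL4 lower. The vessel growth factor VEGFA had 103, 76.9 and 81.6 CPM in 22 and 157, 147 and 145 CPM in 35 (-0.78 ± 0.11), and the carbonic anhydrase CA12 averaged 30.5 ± 2.45 CPM in 22 and 17.1 ± 1.22 CPM in 35 (0.83 ± 0.09). YAP and TAZ targets had AMOTL2, ARHGEF17 and MYOF of 25 members higher and F3, ASAP1 and CYR61 lower, with the matricellular gene CYR61 at 1073, 921 and 1065 CPM in 22 and 1673, 1484 and 1638 CPM in 35 (-0.65 ± 0.09); CYR61 and F3 lie in the chromosome 1 block. The immediate early list had FOSL1, KLF6, ZFP36 and RHOB of 31 members higher, or 0 to 2 without any 1 library other than replicate 3 of 35, and IER2, DUSP2, DUSP5, GADD45B and CYR61 lower. MAPK feedback had EPHA4, IL11, FOSL1 and CCND1 of 20 members higher and DUSP5, ETV1 and PHLDA1 lower, or 1 lower without replicate 3 of 22. The EGF family of ligands and receptors had EREG, NRG2, ERBB2 and LRIG1 of 13 members higher and AREG and ERRFI1 lower, or 1 lower without replicate 2 or 3 of 22 or replicate 1 or 3 of 35. Cyclin D1 (CCND1) averaged 1160.4 ± 47.01 CPM in 22 and 850.2 ± 45.3 CPM in 35 (0.45 ± 0.09), and ERBB2, which encodes HER2, averaged 96.6 ± 2.20 CPM in 22 and 73.1 ± 2.14 CPM in 35 (0.40 ± 0.07).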
